A study of Homo sapiens with 6 samples.

Results

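The family of miR-130, miR-301 and miR-454 was examined in small RNA libraries of MIO-M1, an established line of human Müller glia, which are the main glial cells of the retina. The libraries came from 3 whole cell samples and 3 samples of secreted extracellular vesicles (EV). The 6 members were taken by name from the 2576 mature miRNAs listed in the deposited tables, and are hsa-miR-130a-3p, hsa-miR-130b-3p, hsa-miR-301a-3p, hsa-miR-301b, hsa-miR-454-3p and hsa-miR-130b-5p, written without the prefix from here on. All samples were wild type and no agent is named for any of them. Replicates 1, 2 and 3 stand for passages 22, 24 and 26 in whole cells and for passages 23, 25 and 27 in EV, so that no passage occurs in both groups. Values are given in this order. All libraries stem from 1 cell line, so the p-values measure the spread between its passages. Cells were grown in medium with calf serum. The labels name serum-free medium for the collection of EV, and the methods name vesicle-depleted medium, ultracentrifugation and RNase A treatment of the intact vesicles. RNA was isolated from EV with another kit than from cell pellets, so the effects of the kit and of the source cannot be told apart.

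A mature miRNA guides the RNA-induced silencing complex to messenger RNAs, mainly through its seed, bases 2 to 8 from the 5′ end. miRNAs with the same seed can bind many of the same target sites and are grouped as a family. The hairpin precursor gives a 5p and a 3p arm, one of which usually accumulates as the guide. The family with the seed AGUGCAA has been studied in TGF-β signalling, angiogenesis and cell proliferation.

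The mature sequences show how alike the members are and which member stands outside the seed family. They were taken from RefSeq (GRCh38.p14), which gave a sequence for 5 of the 6 members. miR-130a-3p is named only. The capitals mark bases 2 to 8. Within the hairpins, the positions are chr22:21653354-21653375 for miR-130b-3p, chr17:59151149-59151171 for miR-301a-3p, chr22:21653025-21653047 for miR-301b, chr17:59137787-59137809 for miR-454-3p and chr22:21653316-21653336 for miR-130b-5p.

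miR-130b-3p: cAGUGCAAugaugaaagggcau

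miR-301a-3p: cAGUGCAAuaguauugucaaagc

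miR-301b: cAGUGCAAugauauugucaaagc

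miR-454-3p: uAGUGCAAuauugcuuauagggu

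miR-130b-5p: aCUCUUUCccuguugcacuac

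miR-130b-3p, miR-301a-3p, miR-301b and miR-454-3p share the seed AGUGCAA, which miR-130a-3p is also known to carry, and these 5 are called the seed members. miR-301a-3p and miR-301b differ at 2 of 23 bases, A10G and G11A, with the base of miR-301a-3p first and positions counted from the 5′ end. miR-130b-3p and miR-301b are identical over the first 12 bases. Reads that end early could therefore fit more than 1 member, and the number of mismatches allowed in the alignment is not given in the sources used here. miR-130b-5p is the opposite arm of the miR-130b hairpin. Its own seed, CUCUUUC, is carried by no other mature miRNA in the RefSeq table, and its bases 13 to 19, UUGCACU, are the reverse complement of the family seed. Of 2370 mature sequences, 8 (0.338%) hold this stretch.

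The members come from 3 loci, with positions on GRCh38. MIR130A, on the plus strand of chromosome 11 from 57641198 to 57641286, lies in an intron of the non-coding gene AP000662.1. MIR301A and MIR454 both lie in introns of SKA2, which encodes a protein of the spindle and kinetochore complex, on the minus strand of chromosome 17 from 59151136 to 59151221 and from 59137758 to 59137872, with 13263 bases between the hairpins. MIR301B and MIR130B lie on the plus strand of chromosome 22 from 21652981 to 21653058 and from 21653304 to 21653385, 245 bases apart, in an intron and an exon of the non-coding transcript AP000553.1. The deposited tables use other coordinates, without naming their build, and the sequences were matched by name. miR-301b, which RefSeq lists as miR-301b-3p, was also matched by its length and its distance to miR-130b-5p.

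Whole cell libraries held between 396025 and 3990900 counts in total, and EV libraries between 1225541 and 3134561. CPM, the count scaled to a common library total, is used for levels throughout. Where a miRNA had no count, up to 3 counts remain possible, which is between 0.752 and 7.58 CPM in whole cells and between 0.957 and 2.45 CPM in EV. These limits and all intervals cover counting error only, since no step that collapses copies of a starting molecule is described. Low counts were rare in EV, as given below. The level behind an EV count of 0 therefore need not lie within these limits. The members are 21 to 23 bases long, so their levels were compared as CPM without a correction for length. How well each sequence was captured in the libraries was not measured, which limits comparisons between different members and arms. The 5 Müller glia and neural progenitor miRNAs chosen as markers were miR-9-5p, miR-125b-5p, miR-204-5p, let-7a-5p and miR-100-5p. All were counted in both groups and together took 243000 to 299000 CPM in whole cells and 133000 to 181000 CPM in EV. The sum does not give the direction of each marker. Among the most abundant miRNAs listed by the paper, let-7a-5p and miR-125b-5p had higher values in whole cells. miR-9-5p and miR-100-5p were listed for EV only, which gives their rank within EV and not the direction of their levels. The paper lists miR-204-5p as lower in EV.

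Members were compared between EV and whole cells with edgeR's quasi-likelihood test, fitted across the 430 miRNAs that reached 5 CPM in 3 or more libraries. A call required an adjusted p below 0.01 and a log2 fold change of at least 2.5 in size. The study states these limits with its results, and a less strict limit on the false discovery rate in its methods. Of the 6 members, miR-301b did not pass the filter and 5 did, miR-301a-3p through its EV libraries alone. Of these 5, 0 were called by edgeR, beside 5.81% of all tested miRNAs, and 3 had an unadjusted p below 0.05, beside 35.8%. At the less strict limit of 0.05 for the adjusted p, 2 of the 5 passed, beside 21.6% of all tested miRNAs with the fold limit and 28.6% without it. These were miR-301a-3p, higher in EV (11.9% of all), and miR-130b-5p, lower in EV (9.77% of all). The median log2 fold change was 0.65 for the 5 members and -0.23 for all 430 miRNAs. DESeq2, the tool of the study, called the same 2 members at the stricter limit, with 17.1% of miRNAs called.

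**Figure D1:**
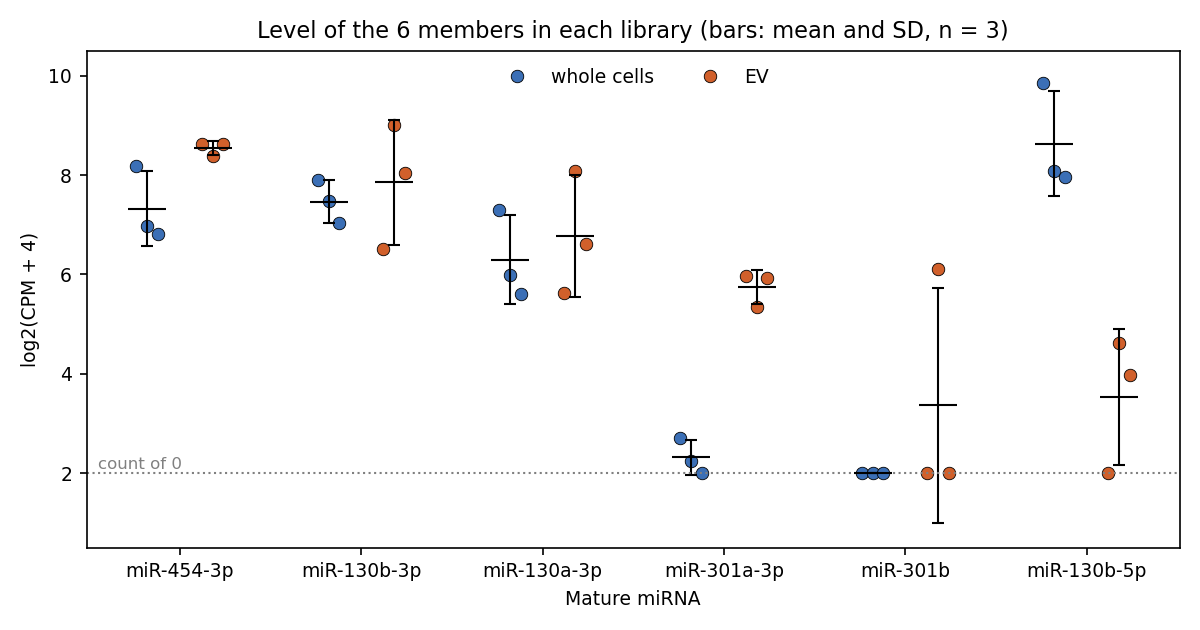
Level of each member as log2(CPM + 4) in the 3 whole cell libraries (blue) and the 3 EV libraries (orange), with the mean and SD of each group; the dotted line marks a count of 0. miR-301a-3p lies at or near the line in whole cells and well above it in all EV libraries, whereas miR-130b-5p is the highest member in whole cells and among the lowest in EV.

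miR-301a-3p, encoded in SKA2 like miR-454-3p, had 1, 3 and 0 counts in whole cell replicates 1, 2 and 3. In EV replicates 1, 2 and 3 it had 72, 75 and 179 counts. All EV libraries lay above all whole cell libraries, although whole cell replicate 2 was the deepest library of the study. In CPM the level was 2.53, 0.752 and 0 in whole cells and 58.7, 36.8 and 57.1 in EV. The EV libraries were close to each other, with a mean of 50.9 ± 12.2 CPM (SD, n = 3), against 1.09 ± 1.30 CPM (SD, n = 3) in whole cells.

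Over the pooled libraries, miR-301a-3p had 326 counts in EV and 4 in whole cells, a ratio of 71.8 after scaling to the library totals (95% exact interval 27.8 to 265). This interval covers the counting of pooled reads and not the spread between libraries. All whole cell libraries were below the 5 CPM of the filter, so miR-301a-3p entered the fit through its EV libraries alone. The p-values of the fits do not account for this selection. The fitted log2 fold change was 5.89 ± 1.51 (SE; edgeR's quasi-likelihood test, adjusted p = 0.0235). At such low counts in whole cells the fitted value also depends on the prior count of the tool. DESeq2 gave 5.90 ± 1.42 (SE; adjusted p = 2.09e-04, Wald test). The difference rests on whole cell counts of 3 or fewer, and with whole cell replicate 2 or 3 left out the adjusted p by edgeR was 0.183 or 0.127.

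The other arm of the same hairpin, miR-301a-5p, had 2, 4 and 4 counts in whole cells and 0 in all EV libraries, and did not pass the filter. The 5p arm thus had a few more counts than the 3p arm in each whole cell library, too few to rank the arms, and in EV the 3p arm alone was counted.

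miR-454-3p reached 114, 483 and 136 counts in the whole cell libraries and 481, 676 and 1217 counts in the EV libraries. In CPM this was 288, 121 and 109 in whole cells and 392, 332 and 388 in EV, where it was the member with the highest mean. The groups did not overlap, but whole cell replicate 1 came close to the EV range. The mean was 172.5 ± 100.1 CPM for whole cells against 370.8 ± 34.0 CPM for EV (SD, n = 3 each). The difference of 1.22 on the log2(CPM + 4) scale had p = 0.1 in a two-sided exact permutation test, the smallest p that 3 libraries against 3 allow.

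In the fit across all miRNAs, the estimate for miR-454-3p was 1.21 ± 0.51 (log2, SE; edgeR, adjusted p = 0.133), which did not pass. The groups did not overlap for 3 of the 5 tested members, beside 48.4% of the 430 miRNAs. EV lay above for miR-301a-3p and miR-454-3p (20.5% of all) and below for miR-130b-5p (27.9% of all). miR-454-3p has the lowest GC content of the printed members, 34.8%, where the median of the tested miRNAs with a sequence was 50.0%. Across these miRNAs, the deviation of a library from the mean of the 6 changed with each 10 points of GC by -0.07 to 0.65 on the log2 scale in whole cells and by -0.40 to -0.33 in EV. With a curved trend on GC content removed from each library, which was chosen after seeing the data, the log2 fold change of miR-454-3p was 0.06 (edgeR, adjusted p = 0.950), while that of miR-301a-3p was 5.44 (edgeR, adjusted p = 0.0268). This step removes any difference between the groups that follows GC content, whatever its source. Technical and biological sources of such a trend cannot be told apart here, and the cause of either difference was not tested.

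The opposite arm, miR-454-5p, passed the filter with 2, 23 and 3 counts in whole cells and 20, 112 and 0 in EV. The EV libraries were split, with the highest value and a 0 among them, and the log2 fold change was 2.27 ± 1.76 (SE; edgeR, adjusted p = 0.416).

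The neighbours in SKA2 stood in unlike ratios in the groups. The ratio of miR-301a-3p to miR-454-3p, with 1 added to each count, was 0.0174, 0.00826 and 0.00730 in the whole cell libraries and 0.151, 0.112 and 0.148 in the EV libraries. On the log2 scale the mean was -6.62 ± 0.68 for whole cells against -2.88 ± 0.24 for EV (SD, n = 3 each). All EV libraries lay above all whole cell libraries, by a mean of 3.74 on that scale, with p = 0.1 in the two-sided exact permutation test. The whole cell ratios rest on miR-301a-3p counts of 1, 3 and 0, so their values depend strongly on the added count. With 0.5 added to each count the difference was 4.27. Apart from the added count, a ratio within a library does not depend on how libraries are scaled. Whether other neighbouring miRNAs differ as much was not tested.

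**Figure D2:**
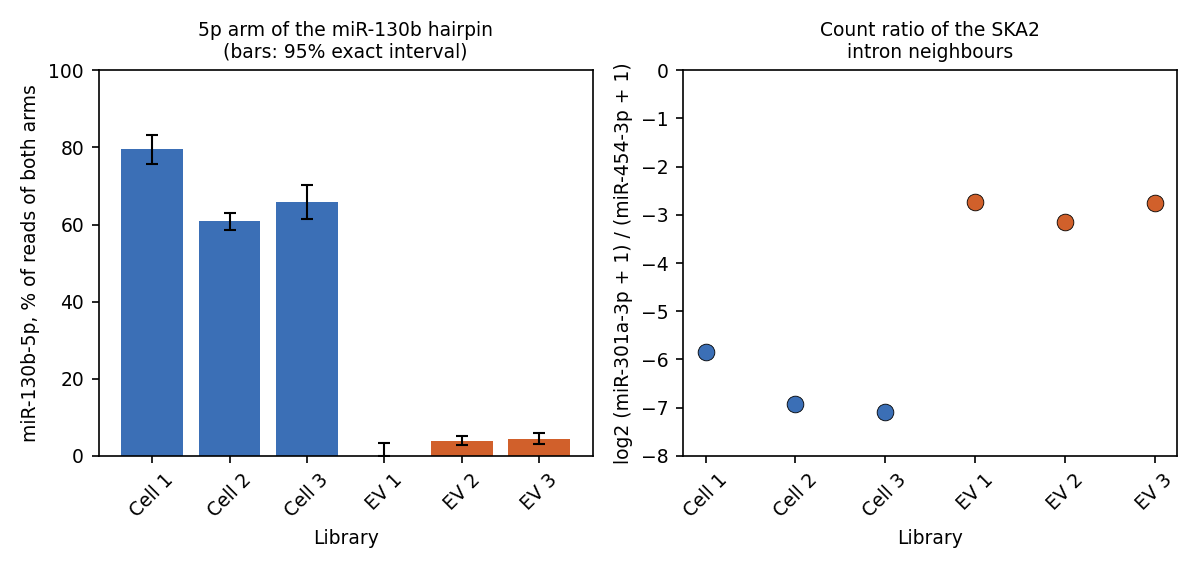
Left, share of miR-130b-5p among the reads of both arms of the miR-130b hairpin in each library, in percent, with 95% exact binomial intervals; right, log2 ratio of the counts of miR-301a-3p and miR-454-3p, with 1 added to each. The 5p arm held 60.8% to 79.6% of the reads in whole cells and at most 4.34% in EV, and the ratio lay between -7.10 and -5.85 in whole cells and between -3.16 and -2.72 in EV.

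Of the arms of the miR-130b hairpin, the 5p arm was lower in all EV libraries than in all whole cell libraries, and the 3p arm overlapped between the groups. miR-130b-5p reached 362, 1070 and 307 counts in the whole cell libraries and 0, 42 and 37 counts in the EV libraries. In CPM it stood at 914, 268 and 245 in whole cells and at 0, 20.6 and 11.8 in EV. The groups were far apart, and whole cell replicate 1 was more than 3 times as high as the other whole cell libraries. The means were 475.8 ± 379.7 CPM for whole cells against 10.8 ± 10.3 CPM for EV (SD, n = 3 each).

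The log2 fold change of miR-130b-5p was -5.41 ± 1.32 (SE; edgeR, adjusted p = 0.0188). DESeq2 gave -5.74 ± 1.04 (SE; adjusted p = 4.52e-07). Without whole cell replicate 1 edgeR gave -4.87 (adjusted p = 0.0704), which no longer passed the limit of 0.05. By mean CPM miR-130b-5p ranked 104th of all listed miRNAs in whole cells and 381st in EV. The ranks have unlike bases, since 586 to 1058 miRNAs had counts in a whole cell library and 329 to 431 in an EV library.

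miR-130b-3p, the arm that carries the family seed, had 93, 690 and 159 counts in whole cells and 107, 1038 and 816 in EV. These were 235, 173 and 127 CPM in whole cells and 87.3, 509 and 260 CPM in EV. The groups overlapped, with both the lowest and the highest value in EV. The log2 fold change was 0.63 ± 0.64 (SE; edgeR, adjusted p = 0.543), and without EV replicate 2 it was -0.03.

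Within the hairpin, miR-130b-5p made up 79.6% of the 455 reads of both arms in whole cell replicate 1 (95% exact interval 75.6% to 83.2%), 60.8% of 1760 in replicate 2 (58.5% to 63.1%) and 65.9% of 466 in replicate 3 (61.4% to 70.2%). In EV it made up 0% of 107 reads in replicate 1 (0% to 3.39%), 3.89% of 1080 in replicate 2 (2.82% to 5.22%) and 4.34% of 853 in replicate 3 (3.07% to 5.93%). The interval of EV replicate 1 rests on a count of 0, and the share there need not lie within it where low counts are rare. The 5p arm was the major arm in every whole cell library and the minor arm in every EV library. Other hairpins were not compared in this way, so how common such a difference is was not tested. The interval of each whole cell library lay above that of each EV library. These intervals cover the counting of reads and not the spread between libraries. Those of whole cell replicates 1 and 2 did not overlap either. The mean share was 68.8% ± 9.71 (SD, n = 3) against 2.74% ± 2.39 (SD, n = 3), with p = 0.1 in the two-sided exact permutation test.

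miR-301b, the neighbour of miR-130b on chromosome 22, was not counted in any whole cell library or in EV replicates 1 and 3. In EV replicate 2 it had 132 counts, or 64.7 CPM. The same library held the highest CPM of miR-130b-3p and miR-130a-3p. A difference between the groups would rest on this library alone (two-sided exact permutation test, p = 1).

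miR-130a-3p, encoded alone on chromosome 11 and known as a regulator of angiogenic gene expression, had 61, 238 and 56 counts in whole cells and 56, 547 and 292 in EV. The level was 154, 59.6 and 44.7 CPM in whole cells and 45.7, 268 and 93.2 CPM in EV. The groups overlapped, and the lowest EV library lay just above the lowest whole cell library. The log2 fold change was 0.65 ± 0.83 (SE; edgeR, adjusted p = 0.638), and without EV replicate 2 it was -0.27. miR-130a-5p, its opposite arm, had 1 count in whole cell replicate 2 and 0 elsewhere.

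The ratio of miR-130a-3p to miR-130b-3p, with 1 added to each count, lay between 0.346 and 0.660 in whole cells and between 0.359 and 0.528 in EV. miR-130b-3p was the more abundant in every library. The difference between the groups, 0.10 on the log2 scale, was smaller than the SD of either group (two-sided exact permutation test, p = 0.8).

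**Figure D3:**
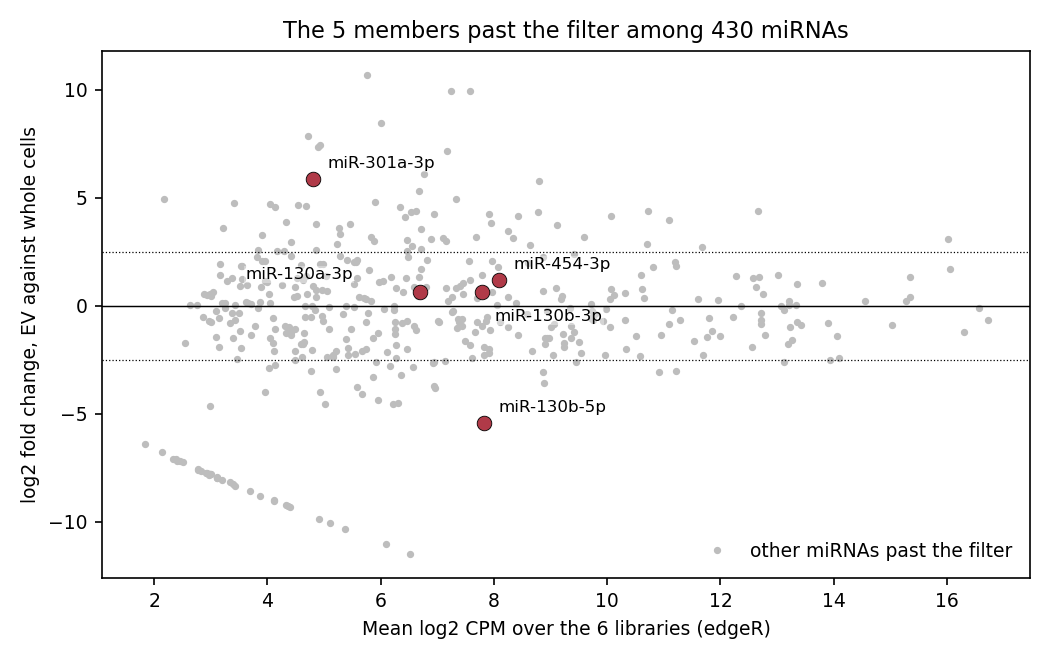
log2 fold change in EV against whole cells (edgeR) by mean log2 CPM for the 430 miRNAs past the filter (grey), with the 5 members in red and dotted lines at the fold limit of 2.5. miR-301a-3p and miR-130b-5p lie beyond the limit on opposite sides, and the other members lie between 0.63 and 1.21.

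The order of the members differed between the groups. In whole cells miR-130b-5p ranked first in each of the 3 libraries. Its lowest value, 245 CPM, lay just above the highest of miR-130b-3p, 235 CPM, but below the highest of miR-454-3p, 288 CPM. miR-130b-3p and miR-454-3p followed with overlapping ranges, and the range of miR-130a-3p overlapped that of miR-454-3p, although miR-454-3p was the higher in all 3 libraries. miR-301a-3p lay apart below these, and did not differ beyond the spread from miR-301b. In EV the order by mean was miR-454-3p, miR-130b-3p, miR-130a-3p, miR-301a-3p, miR-301b and miR-130b-5p, and each neighbouring pair had overlapping ranges.

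The 5 seed members together had 679, 354 and 280 CPM in the whole cell libraries and 584, 1211 and 799 CPM in the EV libraries. Whole cell replicate 1 lay above EV replicate 1, so that the groups overlapped. The mean was 438.0 ± 212.2 CPM for whole cells against 864.6 ± 318.3 CPM for EV (SD, n = 3 each), 1.97 times as high. No p-value was computed for the sum.

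Shares of the members within this sum do not depend on the scaling of the libraries. miR-454-3p took 42.4%, 34.2% and 38.8% in the whole cell libraries and 67.2%, 27.4% and 48.6% in the EV libraries, with overlap (two-sided exact permutation test, p = 0.6). miR-130b-3p took 34.6%, 48.8% and 45.3% in whole cells and 14.9%, 42.1% and 32.6% in EV, with overlap (p = 0.2 in the same exact test). EV replicates 1 and 2 were thus unlike each other, one dominated by miR-454-3p and the other led by miR-130b-3p. miR-130a-3p took 16.0% to 22.7% in whole cells and 7.82% to 22.2% in EV (p = 0.4 in the same exact test).

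miR-301a-3p took 0.372%, 0.212% and 0% of the sum in whole cells and 10.1%, 3.04% and 7.15% in EV. It was the one seed member whose share did not overlap between the groups, with p = 0.1 in the two-sided exact permutation test. Shares within other families were not compared.

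**Figure D4:**
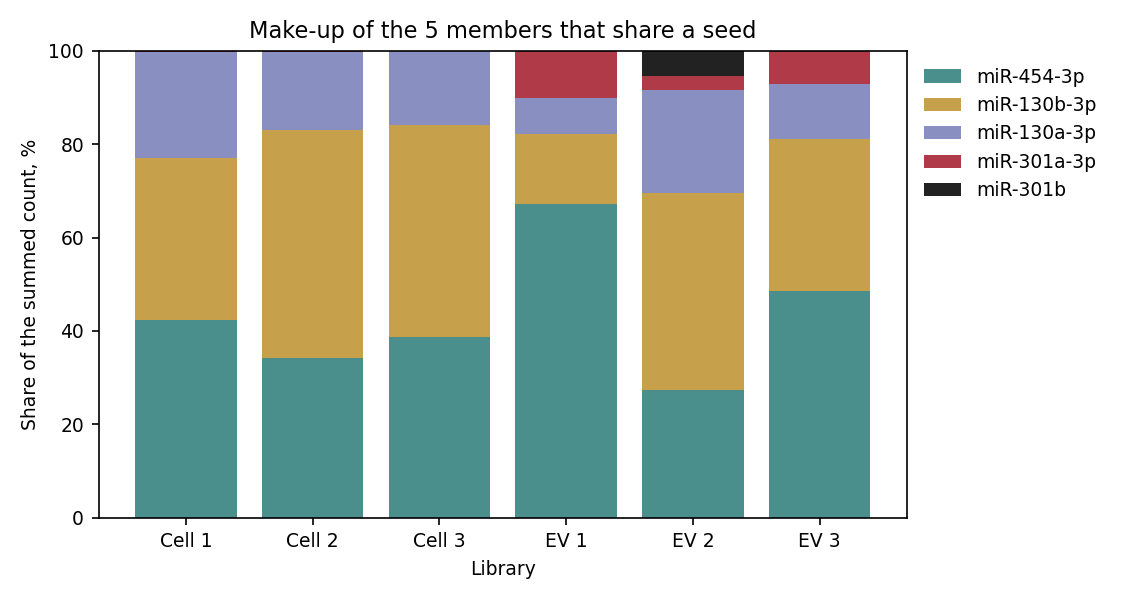
Share of each of the 5 seed members in their summed count, in percent, for each library. miR-454-3p, miR-130b-3p and miR-130a-3p make up nearly all of the sum in whole cells, while miR-301a-3p adds 3.04% to 10.1% in EV and miR-301b is seen in EV replicate 2.

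Low counts were spread unequally over the groups. Among the 6 members and the other 3 arms of their hairpins, 3, 3 and 2 miRNAs had between 1 and 9 counts in whole cell replicates 1, 2 and 3, and none did in any EV library. The lowest count above 0 was 20, 42 and 37 in EV replicates 1, 2 and 3 and 1, 1 and 3 in whole cells. In EV each of these 9 miRNAs was therefore either at 0 or at 20 counts or more, and miR-301b, miR-130b-5p and miR-454-5p were at 0 in some EV replicates and above 20 or at 20 in others. Over all listed miRNAs, 298 to 541 had between 1 and 9 counts in whole cells and 25 to 44 in EV. The part of this pattern in the results for miR-301b, miR-130b-5p and the opposite arms was not tested.

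Summed levels of the markers of other cell types were higher in every EV library than in every whole cell library. A sum does not give the direction of each marker in its list. The 7 blood and serum miRNAs summed to 164 to 1160 CPM in whole cells, where miR-451a, miR-144-3p and miR-142-5p were at 0, and to 1550 to 2310 CPM in EV, where all 7 were counted. The 2 endothelial miRNAs summed to 30.3 to 93.4 CPM in whole cells and to 535 to 810 CPM in EV, and miR-122-5p, a liver marker, to 7.58 to 11.2 and 91.2 to 200 CPM. Of the 4 miRNAs of retinal neurons and photoreceptors, miR-124-3p was at 0 in all libraries and the summed level was 227 to 333 CPM in whole cells and 1150 to 1220 CPM in EV. The part of these miRNAs' sources in the higher level of miR-301a-3p in EV was not tested.

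Other miRNAs share parts of the family seed. miR-3666 and miR-4295, which carry the full seed AGUGCAA in RefSeq, had a count of 0 in all libraries. The first 6 bases of the seed also stand at bases 3 to 8 of 7 miRNAs, of which miR-148a-3p, miR-148b-3p and miR-152-3p were counted and miR-4671-3p and 3 miRNAs of the miR-519 group were at 0. The last 6 bases stand at bases 2 to 7 of miR-19a-3p and miR-19b-3p. One of each kind is shown, with the shared bases in capitals, miR-148a-3p from the minus strand at chr7:25949922-25949943 and miR-19a-3p from the plus strand at chr13:91350939-91350961 (GRCh38.p14).

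miR-148a-3p: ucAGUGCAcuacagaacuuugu

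miR-19a-3p: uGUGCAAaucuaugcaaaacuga

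Of the counted miRNAs with the shift to bases 3 to 8, miR-148a-3p had 1100, 395 and 363 CPM in whole cells and 13100, 12500 and 11200 CPM in EV. Its log2 fold change was 4.41 ± 0.46 (SE; edgeR, adjusted p = 0.00209), which was a call. miR-148b-3p, from the same family, was at -0.65 ± 0.31 (SE; edgeR, adjusted p = 0.184), and miR-152-3p at 0.33 ± 0.37 (SE; edgeR, adjusted p = 0.579). The median of the 3 was 0.33, and that of all 430 miRNAs was -0.23.

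miR-19a-3p had 0, 2 and 0 counts in whole cells and 50, 262 and 50 counts in EV. miR-19b-3p had 16, 41 and 5 counts in whole cells and 150, 765 and 345 in EV. For both, no EV library was as low as any whole cell library. The log2 fold change of miR-19b-3p was 3.58 ± 1.02 (SE; edgeR, adjusted p = 0.0377), and that of miR-19a-3p, fitted to whole cell counts of 2 or fewer, was 7.36 ± 1.66 (SE; edgeR, adjusted p = 0.0144). Neither passed the limit of 0.01 by edgeR, and DESeq2 called both. miR-19a-3p reached the level of the filter in EV libraries alone, and its p-values do not account for this selection.

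**Figure D5:**
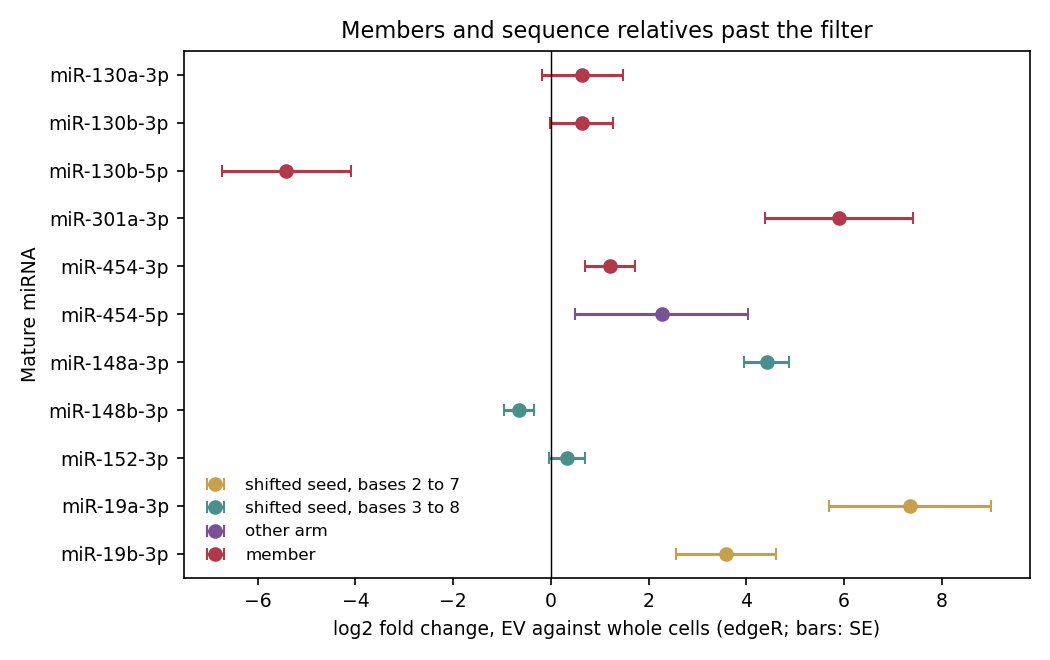
log2 fold change with SE (edgeR) of the 5 members past the filter, of the other arm miR-454-5p and of the 5 miRNAs with a shifted seed. Values run from -5.41 for miR-130b-5p to 7.36 for miR-19a-3p, and within each seed group some members lie near 0 and others well above it, except for the miR-19 pair.

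The miRNAs with the most similar profile were found by Pearson's correlation of log2(CPM + 4) over the 6 libraries, which share the same group difference and are described here without a test. For miR-130b-3p these were miR-873-5p (r = 0.970), miR-152-3p (r = 0.950) and miR-452-5p (r = 0.950). For miR-130a-3p they were miR-873-5p (r = 0.949), miR-152-3p (r = 0.944) and miR-130b-3p (r = 0.929), and both members of this pair were highest in EV replicate 2. miR-301a-3p was most like miR-411-5p (r = 0.997), miR-374a-3p (r = 0.991) and miR-199a-3p (r = 0.991). miR-454-3p was most like miR-369-3p (r = 0.974), let-7f-5p (r = 0.962) and miR-29b-3p (r = 0.950), and its correlation with miR-301a-3p was 0.877. miR-130b-5p was most like let-7d-5p (r = 0.994), miR-204-5p (r = 0.987) and miR-323a-3p (r = 0.986), while its correlation with miR-130b-3p was 0.0959.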

How the data were processed

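Small RNA libraries of 6 samples were prepared with the QIAseq kit. The authors trimmed adapters with cutadapt, aligned the reads and deposited the raw count per mature miRNA. Headers name featureCounts 1.5.0-p1 (strand setting 1), miRBase 20 and Bowtie 1. The methods give Bowtie2 and a later miRBase release. The genome build is not given in the sources used here.

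For the present tests, samples were grouped by the labelled fraction. The filter required 5 CPM or more in 3 or more libraries and kept 430 miRNAs. edgeR 4.0.16 (R 4.3.3) was run with TMM factors, and p-values were adjusted by Benjamini-Hochberg over all 430. The SE was the fold change divided by the root of the F statistic. DESeq2 1.42.0, other factors, filters, thresholds and pseudocounts, and fits without single libraries were the alternatives. Both tools were also run on simulated counts, and no statement here rests on the outcome. Single values were tested by exact permutation in scipy 1.17.1. Levels on a log2 scale had 4 CPM added. Hairpin positions came from GENCODE 29, and figures were drawn with matplotlib 3.10.9. Named miRNAs were the 6 members, other arms of their hairpins, miRNAs with the same or a shifted seed, and the 3 most alike miRNAs of each member. Markers of cell types were named too. The members and lists were chosen with earlier results of these data known.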

Additional observations from a re-analysis of the deposited data

How the results depend on the processing

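The number of members called was 0 by edgeR and also 0 in each fit that left out 1 library and with RLE factors, library totals, upper-quartile factors, filterByExpr and the GC trend removed. It was 2 with DESeq2, 1 without a filter on low counts (miR-130b-5p, at -5.53), and 2 at an adjusted p below 0.05, with or without the fold limit. By DESeq2, miR-130b-5p was at -5.74 and miR-301a-3p at 5.90. The cause of the difference between the tools was not tested. Over all miRNAs edgeR made 25 calls, against 72 by DESeq2, 45 without a filter and 38 with upper-quartile factors. Leaving out 1 library gave between 0 calls, without whole cell replicate 3 or without EV replicate 2, and 31. At the limit of 0.05, with the fold limit, 93 miRNAs passed, against 207 without a filter, where miR-301b passed too, on its counts in EV replicate 2. When single libraries were left out, the log2 fold change ran from -6.19 to -4.87 for miR-130b-5p, from 5.15 to 6.49 for miR-301a-3p, from 0.93 to 1.45 for miR-454-3p, from -0.27 to 1.05 for miR-130a-3p and from -0.034 to 0.95 for miR-130b-3p. The last 2 changed sign without EV replicate 2, as did their differences of log2(CPM + 4), which were 0.47 and 0.39 and ran from -0.18 to 1.05 and from -0.19 to 1.06. The difference in the share of miR-454-3p, 9.30 percentage points, ran from -0.43 without EV replicate 1 to 19.5 without EV replicate 2. The log2 ratio of miR-130b-3p to miR-301b differed by -1.31, with a range of -2.91 to 0.44, positive without EV replicate 2. That of miR-130a-3p to miR-130b-3p differed by 0.10, with a range of -0.063 to 0.40, negative without whole cell replicates 2 and 3. The summed CPM differed by 254 to 567 in the same fits. RLE factors moved the median of all log2 fold changes by -0.18 and removal of the GC trend by 0.43. With the GC trend removed, the log2 fold change of miR-454-3p was 0.06 with an SE of 0.425, against 1.21 in the fit without this step. No paired analysis was possible because the labels give no replicate numbers, only passages, and the groups share none. The depth of whole cell replicate 1, 396025 counts, limits what a count of 0 excludes there to 7.58 CPM.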
